A study of Mus musculus with 9 samples.

Results

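Haemoglobinizing erythroblasts are the nucleated red cell precursors that have begun to fill with globin, and they were followed here in the femur bone marrow of the 3 mouse strains of a lupus study. They were chosen from their measured transcripts. A droplet barcode counted as an erythroblast when it held at least 1000 unique molecular identifiers (UMIs, each standing for 1 captured transcript) and 500 genes with at most 10% mitochondrial UMIs, when Slc4a1 and Alas2 together reached 3 UMIs, when Hba-a1, Hba-a2, Hbb-bs and Hbb-bt together reached 1% of its UMIs, and when it held no UMI of the B cell gene Cd79a. Of the 68444 barcodes called as cells, 39051 passed the limits on UMIs, genes and mitochondrial content, and 540 of those (1.38%) were erythroblasts. NZB mice gave 21, 63 and 43 of them, NZW mice 57, 142 and 100, and NZBWF1 mice 20, 72 and 22.

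The study compared 9 female mice, 3 of each strain, with 1 single-cell 3′ library from each mouse. NZB (New Zealand Black) and NZW (New Zealand White) are the inbred parents. NZBWF1 is the hybrid of an NZW mother and an NZB father, and it is the strain in which a lupus-like disease appears. All mice came from The Jackson Laboratory, were 9 to 10 weeks old, and carried no transgene or treatment. Red cells had been lysed before loading, a step that can remove late erythroid cells together with erythrocytes, so the cells described are those that outlasted it. The mice were separate animals, and the p-values below rest on the spread between mice, with 3 per strain. In the gene tests the spread of a gene was estimated over all 9 mice together. A comparison between the parents thus also depends on the hybrid mice.

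In the marrow, committed progenitors first respond to erythropoietin through its receptor and divide, and then become erythroblasts that take up transferrin-bound iron, build haem in and around the mitochondria, load it into α and β globin chains, and assemble a membrane skeleton anchored to the anion exchanger band 3. The nuclear factors GATA1 and KLF1 drive much of this programme. Towards its end the cells leave the cell cycle, degrade most other transcripts and organelles, and expel the nucleus.

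The short stretches before the start sites of the genes that define these cells are where the letters recognised by those factors can be seen. The 150 bases upstream of 3 genes of the membership rule were taken from the RefSeq promoter table (GRCm38.p6) and are printed 5′ to 3′ on the strand of the gene, with GATAA (the core of a GATA site) or its reverse TTATC, and CACCC (the core of a KLF site) or its reverse GGGTG, in capitals. Hba-a1, the main adult α globin gene, has its window at chr11:32283522-32283671 on the plus strand, Hbb-bs, the main adult β globin gene, at chr7:103827929-103828078 on the minus strand, and Alas2, the erythroid enzyme that opens haem synthesis, at chrX:150547267-150547416 on the plus strand.
Hba-a1: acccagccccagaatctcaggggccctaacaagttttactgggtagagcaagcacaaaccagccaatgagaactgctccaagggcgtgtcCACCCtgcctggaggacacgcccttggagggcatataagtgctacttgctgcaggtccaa
Hbb-bs: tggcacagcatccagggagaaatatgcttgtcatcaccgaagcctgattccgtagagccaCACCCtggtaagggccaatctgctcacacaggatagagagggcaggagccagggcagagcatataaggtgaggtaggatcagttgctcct
Alas2: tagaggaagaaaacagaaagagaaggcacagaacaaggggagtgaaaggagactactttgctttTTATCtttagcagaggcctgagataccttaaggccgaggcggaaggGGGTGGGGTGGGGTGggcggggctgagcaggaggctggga
Hba-a1 and Hbb-bs each held 1 CACCC match and 0 GATAA matches, and Alas2 held 3 and 1. Among 27025 promoter windows of the same length, 36.9% held CACCC and 13.6% held GATAA on either strand. Of the 20 genes of the red cell membrane and skeleton list with a window, 15 (75%) held CACCC, 6 (30%) held GATAA and 6 held both, against 3.97% with both among all windows. Of the 25 genes of the maturation list with a window, 7 held CACCC and 1 held GATAA. In the haem, iron and transcription factor lists 14.3, 11.8 and 13% of windows held GATAA, near the share among all windows, and 42.9, 47.1 and 56.5% held CACCC. The latter motif was also found in 54.5% of windows of the S phase list and in 50% of those of the interferon list, so a share above that of all windows was not particular to red cell genes. A match describes these letters only and does not show a bound site.

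The barcodes carried the markers of the erythroid lineage. All 6 early erythroid markers that the rule did not use (Car1, Car2, Epor, Gata1, Klf1 and Tfrc) were present in at least 10% of the cells, and Klf1 was found in 90.9% of erythroblasts against 3.63% of the rest of the marrow, whose median depth was 2275 UMIs against 6552. The rest are the 38004 passing barcodes with no UMI of Slc4a1 or Alas2 and under 1% globin. Car1 was found in 6.13% of them, so they overlap with the Car1-positive progenitors. These markers are shared with earlier erythroid cells, and Klf1 was also found in 88.5% of the Car1-positive progenitors described below, so it did not separate the erythroblasts from those. The genes of the rule did, and genes outside it such as Kit and Myb differed as well, as given below. The embryonic globin genes Hba-x, Hbb-bh1 and Hbb-bh2 had 0 UMIs over all 540 cells, which allows up to 3, and Hbb-y had 4. The progenitor gene Gata2 had 0 UMIs, and the stem cell factor receptor gene Kit had 7.

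Transcripts from the marker lists of other cell types were present too, those of neutrophils in the most cells. At least 1 UMI of the neutrophil list (8 genes, S100a8 and S100a9 among them) was found in 94.4% of erythroblasts, with a median of 4 UMIs per cell. In 50 cells (9.26%) there were 20 or more, with a median of 454, and 16 of those were called as doublets, as were 26 erythroblasts in all. The summed neutrophil list ran from 4970 to 12000 CPM (UMIs of a gene scaled to a total of 1000000) in NZB, from 5000 to 9700 in NZW and from 2270 to 25600 in NZBWF1 mice. The megakaryocyte list was detected in 22.2% of cells, the plasma cell list in 16.1%, the macrophage list in 11.3%, the monocyte list in 10.4%, the granulocyte-monocyte precursor list in 8.7%, the B cell list in 7.96% and the T cell list in 5.0%. In the megakaryocyte list most detection was of Gp9, found in 21.5% of erythroblasts. Gp9 was 5.93-fold higher than in the Car1-positive progenitors described below, in 9 of 9 mice. Pf4, Itga2b and Ppbp were found in 0.741, 0.556 and 0.185% of cells. The summed megakaryocyte list ran from 19.5 to 33.4 CPM in NZB, from 26.9 to 47.9 in NZW and from 46.6 to 206 in NZBWF1 mice. Single cells can weigh on these sums, as 1 cell held 20 or more UMIs of the list and Ppbp alone reached 68.8 CPM in a mouse. The part of the list in the strain comparisons was not tested. Vpreb1, Itgax, Arg1, Cpa3, Sdc1, Procr and Cd5, each from another lineage, stood at 0. Each test of shares and of strain differences was also run without the 50 neutrophil-rich cells.

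Just inside the limit on Slc4a1 and Alas2, 79 cells had exactly 3 UMIs of the pair, with a median globin content of 2.43% and Klf1 in 89.9%. Just outside it, 66 cells with 2 UMIs had 1.92% globin and Klf1 in 86.4%. On the globin side, 34 cells lay between 1 and 1.25%, with a median of 8722 UMIs and 20 or more neutrophil UMIs in 17.6% of them. The 23 cells that met the other criteria and lay between 0.75 and 1% had a median of 10790 UMIs, and 0.0% of them had 20 neutrophil UMIs. A further 33 barcodes met everything but the requirement for no Cd79a. Of the 540 cells, 2 carried a barcode sequence that also belonged to an erythroblast of another library, and 8 shared theirs with some other passing barcode, against 342 of all 39051.

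Globin content differed widely from cell to cell. The median erythroblast had 3.6% of its UMIs in the 4 adult globins, and the highest had 47.5%. From 1 to 3% there were 217 cells, from 3 to 10% there were 232, from 10 to 30% there were 78, and 13 cells lay above 30%. The cells richest in globin had the fewest UMIs. Median UMIs were 7888, 6290, 3838 and 2344 in the 4 classes, and median genes 2462, 2075, 1395 and 891. The median mitochondrial content was 5.45, 4.97, 4.26 and 1.88%.

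**Figure D1:**
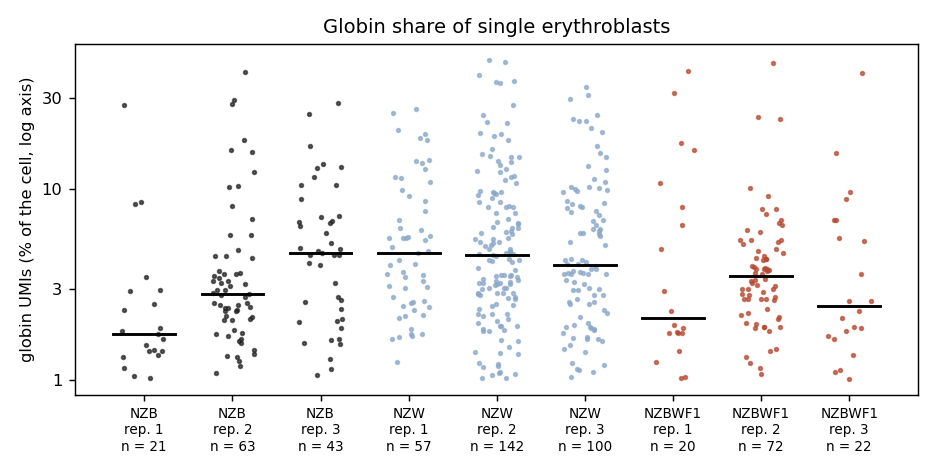
Globin UMIs as a percentage of all UMIs of the cell (log axis) for each of the 540 erythroblasts, grouped by mouse, with a bar at the median of the mouse and the number of cells under each name. The 3 NZW medians lie between 4.0 and 4.62%, and the NZB medians between 1.74 and 4.61%.

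By mouse, the median globin content was 1.74, 2.83 and 4.61% in NZB, 4.62, 4.49 and 4.0% in NZW, and 2.11, 3.47 and 2.44% in NZBWF1. Each NZBWF1 mouse lay below each NZW mouse, while the NZB mice overlapped both. Globin content is part of the rule, so these values are a description with no test. Several strain differences below were refitted with the median globin content of the mouse as a covariate.

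The nearest cells in the marrow are 1552 Car1-positive progenitors (at least 2 UMIs of Car1, fewer than 3 of Slc4a1 and Alas2 together, no Cd79a), and against them the erythroblasts differed in haem, membrane and growth genes. Levels are CPM averaged over the 9 mice with their SD, the rule chose the cells, and the folds are therefore a description. Slc25a37, the mitochondrial iron importer mitoferrin 1, stood at 556 ± 131 against 58.5 ± 17.5 CPM. Sox6, a factor of definitive erythropoiesis, stood at 216 ± 40.1 against 22.0 ± 7.24 CPM. Epb42 and Trim10 were 6.83-fold and 4.86-fold higher, and each was higher in 9 of 9 mice.

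Genes of the haem pathway differed by smaller folds. Fech, which inserts iron into protoporphyrin, was 3.16-fold higher, Alad (porphobilinogen synthase) 2.70-fold, Cpox 2.23-fold and Urod 2.09-fold higher, again in 9 of 9 mice. Tfrc, the transferrin receptor, stood at 566 ± 94.0 against 192 ± 32.2 CPM. Tfr2, the second transferrin receptor gene, was lower in erythroblasts, with 57.2 ± 24.7 against 101 ± 15.9 CPM. Epor stood at 131 ± 24.9 against 111 ± 7.82 CPM and was higher in 8 of 9 mice.

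Several genes of immature cells were lower in erythroblasts. Kit, the stem cell factor receptor, was detected in 0.741% of erythroblasts against 40.6% of progenitors, although the progenitors were deeper (median 9699 UMIs). Myb, a proto-oncogene whose product keeps progenitors immature, stood at 14.8 ± 6.24 against 234 ± 33.0 CPM. Myc stood at 23.0 ± 12.0 against 119 ± 24.7 CPM and Bcl11a at 120 ± 28.2 against 247 ± 20.4 CPM. Car1 itself, which selected the progenitors, was lower in 9 of 9 mice at 2890 ± 216 against 4320 ± 214 CPM.

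Within the erythroblasts, higher globin content went with higher membrane and haem genes. These levels are UMIs of a gene per 1000000 non-globin UMIs, so that the globins themselves do not dilute the rest. Each class was summed over the cells of all mice, and the strains were not equally represented in the classes. Cells with 10% globin or more made up a mean of 13.3% of erythroblasts in NZB, 20.7% in NZW and 13.2% in NZBWF1 mice. A fold between classes can thus hold a strain difference, and that part was not tested. The median of non-globin UMIs per cell fell from 7760 through 5944 and 3122 to 1505 over the 4 globin classes. A higher level is therefore a larger part of a smaller total and need not mean more UMIs of the gene per cell. Of the mice, 6 had at least 5 cells both with 1 to 3% and with 10% or more, and NZBWF1 replicate 1 was the only hybrid among them. A gene is called higher or lower here when it moved the same way between these classes in each of the 6 mice. The share of genes that met this was 6.32% for higher (375 of 5937 genes with at least 50 UMIs) and 10.3% for lower (614 genes). Cells were sorted by globin, which is part of the rule, and the comparison carries no test. The rule also asks for 3 UMIs of Slc4a1 and Alas2 at any depth. Cells with fewer non-globin UMIs thus entered only with a larger fraction of that pair, which can raise genes that go with it. The part of this selection in the membrane and haem genes was not tested. Markers of macrophages differed between the classes as well. Of the 9 macrophage genes, 0 were higher in all 6 mice and Arg1 stood at 0, but from the cells with 1 to 3% through those with 3 to 10% to those with 10% or more, C1qa went from 32.2 through 17.1 to 161 (higher in 5 mice), C1qb from 12.1 through 7.51 to 88.5 (higher in 5) and Vcam1 from 13.8 through 4.78 to 154 (higher in 4). The neutrophil gene S100a9 went from 5060 through 2670 to 6660 and was higher in 3 of the 6 mice. The part of such RNA in the values that follow was not tested.

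Of the 29 membrane and skeleton genes with 50 UMIs, 24 were higher in all 6 mice and 1 was lower, with a median log2 ratio of 1.15 against -0.06 over all genes. Tmod1, which caps the pointed ends of the short actin filaments of the skeleton, climbed from 23.5 through 81.9 to 206 across the classes of 1 to 3%, 3 to 10% and 10% or more. Sptb, the erythroid β spectrin, ended 2.53-fold higher, and Dmtn, an actin-bundling protein of the skeleton, 3.65-fold higher. The single gene that was lower was Car1, the carbonic anhydrase of early cells, at 0.727 of its starting level, while its paralog Car2 ended 1.46-fold higher.

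Of 29 genes for maturation, mitophagy and protein removal, 18 were higher and 0 lower (median 1.01), and of 15 haem genes 9 were higher and 0 lower (median 0.77). Bnip3l, the receptor that marks mitochondria for removal, ended 2.02-fold higher and Trim10, a RING finger protein of terminal erythroid differentiation, 2.14-fold higher. Fech went from 270 through 388 to 800 and Alad from 2120 through 2810 to 3820. Of 20 iron genes, 6 were higher and 1 was lower. Slc25a37 went from 361 through 668 to 1750, and Tfrc ended 2.43-fold higher. Fth1, the ferritin heavy chain, was abundant throughout and ended 1.32-fold higher.

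Of 25 erythroid transcription factors, 9 were higher, with Sox6 and Foxo3, a regulator of late erythroid genes and of oxidative stress, at 3.32-fold and 3.30-fold. Klf1 and Gata1, already high in the least haemoglobinized cells, ended 1.5-fold and 1.37-fold higher and did not move the same way in all 6 mice. Of 7 genes of erythropoietin receptor signalling with enough UMIs, 0 moved in all 6 mice. Of 17 interferon-stimulated genes 3 were higher.

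No cycle gene of the lists was lower in all 6 mice. Of 28 genes of G2 and mitosis, 7 were higher and 0 lower, and of 25 S phase genes 1 was higher and 0 lower. Mki67, the proliferation antigen, went from 1420 through 1810 to 2710. The classes hold only cells that passed the limits on UMIs, genes and mitochondrial content. A further 190 barcodes met the marker criteria and failed a limit, with a median of 21.0% globin and 1084 UMIs. At 30% globin or more 88 barcodes failed and 13 were kept, so cycle genes in the cells richest in globin were mostly not seen. Outside the lists, and named after their values were seen, Cdkn2d (a cyclin-dependent kinase inhibitor) and Cdc25b (a phosphatase of mitotic entry) were each 6.01-fold higher.

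Among the genes that were lower, 5 abundant ones are given here, also named after their values were seen. Hspd1, the mitochondrial chaperonin, went from 328 through 154 to 29.5. Its partner Hspe1 ended at 0.156 of its starting level, Npm1 (nucleophosmin, a ribosome assembly factor) at 0.261, Ldha (lactate dehydrogenase) at 0.195 and Hsp90ab1 (a cytosolic chaperone) at 0.242. Each of these was lower in 6 of 6 mice. The redox list was split, with 6 of 22 genes higher and 3 lower, Selenbp1 among the latter at 0.451.

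**Figure D2:**
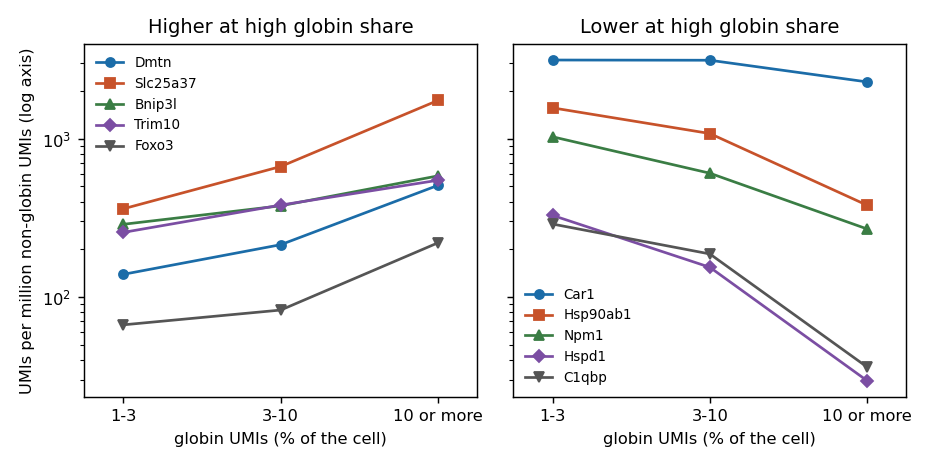
UMIs per 1000000 non-globin UMIs (log axis) in erythroblasts with 1 to 3%, 3 to 10% and 10% or more of their UMIs in globins, for 5 genes that were higher (left) and 5 that were lower (right) at high globin content, each point summed over the cells of all mice. Dmtn went from 139 to 508 and Hspd1 from 328 to 29.5.

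The mix of globin UMIs was not the same in the 3 strains. The ratio of α to β globin UMIs was 0.378, 0.393 and 0.380 in NZB, 0.265, 0.276 and 0.239 in NZW, and 0.362, 0.318 and 0.334 in NZBWF1. Values of different strains did not overlap, and the hybrid lay between its parents with a mean of 0.338 ± 0.0223 against 0.384 ± 0.00814 and 0.260 ± 0.019. Hba-a1 was similar at 10900 ± 2890, 11000 ± 964 and 10100 ± 907 CPM, while Hbb-bs stood at 26800 ± 6810, 39300 ± 709 and 28700 ± 1200 CPM in NZB, NZW and NZBWF1. The minor β gene Hbb-bt made up 7.48 ± 1.35, 9.29 ± 0.763 and 6.0 ± 1.09% of β globin UMIs, and the 2 β genes and the 2 α genes are near-identical copies whose reads the counting can split. The part of read assignment in these shares and in the ratio of α to β was not tested. Within cells, Hbb-bt climbed more steeply than Hbb-bs with globin content, 23.5-fold against 10.4-fold from the lowest class to the cells with 10% or more. Slc4a1 was 826 ± 106, 832 ± 43.5 and 682 ± 48.4 CPM, and Alas2 343 ± 47.1, 362 ± 2.65 and 335 ± 120 CPM. These are genes of the rule and carry no test.

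How many of the marrow cells were erythroblasts differed between mice of a strain as well as between strains. Of the barcodes that passed the limits, erythroblasts made up 0.855, 1.23 and 1.31% in NZB mice (mean 1.13 ± 0.243%). In NZW mice they made up 1.32, 2.76 and 2.02% (mean 2.03 ± 0.719%), and in NZBWF1 mice 0.779, 1.30 and 0.387% (mean 0.821 ± 0.456%). Each NZW value was above each NZB and NZBWF1 value, the lowest of them narrowly, and the other strains overlapped. An exact permutation test over the 3 strains gave p = 0.05, where the smallest p it allows is 0.00357. It treated the mice as interchangeable, although the erythroblast counts of the replicates came in the same order in each strain. NZBWF1 against both parents differed by -1.01 on the log2 scale (exact permutation test, two-sided p = 0.0833), with the hybrid mean below both parental means. The p-value of this difference depended on the setting. The difference was -1.57 (exact p = 0.0357) after each cell was thinned to 1000 UMIs and -1.04 (exact p = 0.0476) without the neutrophil-rich cells. Thinning left few cells, with NZBWF1 shares of 0.273, 0.126 and 0.0352% of 2566, 5552 and 5684 barcodes. With barcodes without Cd79a as the total it was -0.81 (exact p = 0.179), and with doublets removed -0.98 (exact p = 0.0952). With at least 5 UMIs of Slc4a1 and Alas2 it was -1.16 (exact p = 0.0952), and for cells with 10% globin or more -1.51 (exact p = 0.155). It was -1.1 (exact p = 0.0357) without NZB replicate 1 and -1.42 (exact p = 0.0357) without NZBWF1 replicate 2. Leaving out any other mouse gave an exact p between 0.0893 and 0.286. Between pairs of strains, NZBWF1 stood at 0.376 of NZW and NZB at 0.572 of NZW, each with the smallest exact p that 3 against 3 mice can give (0.1), and NZBWF1 at 0.657 of NZB (exact p = 0.3).

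Shares depend on what else is in the suspension. With the barcodes that held no Cd79a as the total, so that B-lineage cells leave it, NZBWF1 stood at 0.847 of NZB (exact p = 0.7) and the 3-strain test gave p = 0.0393. A share cannot tell fewer erythroblasts from more of other cells, and red cell lysis acted before the count. The contrast of NZBWF1 with its parents was -0.55 (exact p = 0.286) without NZBWF1 replicate 3, the mouse with the fewest erythroblasts per barcode.

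Most erythroblasts carried transcripts of dividing cells. After each cell was thinned to 1000 UMIs, 86.7% held a UMI of Mki67 or Top2a, a DNA topoisomerase of mitosis, against 59.2% of Car1-positive progenitors and 27.9% of the rest of the marrow. Before thinning the shares were 98.0, 91.6 and 40.2%. The share was 84.3, 88.8 and 91.0% in the 3 classes below 30% globin and 61.5% among the 13 cells above it. By mouse it was 85.7, 92.1 and 93.0% in NZB, 82.5, 86.6 and 89.0% in NZW, and 75, 83.3 and 81.8% in NZBWF1. NZBWF1 lay below NZB without overlap, and NZW overlapped both. In each strain replicate 1 had the lowest share, and the permutation test did not take the replicate number into account. Among cells with 1 to 10% globin the shares were 85.0, 90.7 and 94.1% in NZB, 81.8, 87.6 and 86.4% in NZW, and 86.7, 83.8 and 80.0% in NZBWF1, so that NZBWF1 and NZB overlapped. The exact permutation test over the 3 strains gave p = 0.05 with all cells, p = 0.186 among those with 1 to 10% globin and p = 0.189 without the neutrophil-rich cells. Free RNA in the droplets can add such UMIs at a like rate in all cells, and it made up an estimated 0.135 to 0.328% of erythroblast UMIs.

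**Figure D3:**
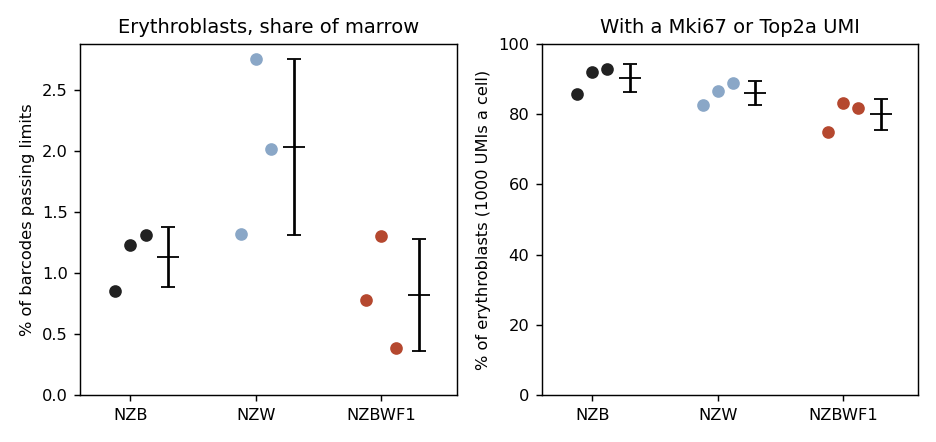
Left, erythroblasts as a percentage of the barcodes that passed the limits. Right, percentage of erythroblasts with a UMI of Mki67 or Top2a after thinning each cell to 1000 UMIs. Points are mice, and the bars give the mean and SD of 3 mice. The NZW shares on the left (1.32 to 2.76%) lie above the others, and NZBWF1 on the right has the lowest mean (80.1%).

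Strain differences in expression were tested on the UMIs of the erythroblasts summed for each mouse, which came to between 152995 and 900744 UMIs, with edgeR's quasi-likelihood test over all genes and Benjamini-Hochberg adjustment. Levels in these comparisons are CPM scaled by TMM normalisation, and differences are log2 fold changes ± SE. This SE was derived from the fold change and the F value of the test, and was not estimated separately. For genes with few UMIs in a strain it can be smaller than the counting error. Between the parents, 160 of 4235 genes passed (3.78%), 80 higher in NZB (1.89%) and 80 higher in NZW (1.89%). Of the 160, 157 had parental mice that did not overlap, and in 147 the mean of the hybrid lay between the parental means. Over all 4235 genes, 884 had parental mice that did not overlap. When the median globin content of each mouse was added to the fit, 94 of the 160 still passed. DESeq2 called 75 genes between the parents.

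Of 29 membrane and skeleton genes tested, 5 were lower in NZB and 0 higher, with a list median of -0.27 against 0.01 over all genes, and 22 members lay below zero. These levels cannot tell a lower level per cell from a shift in the maturity of the cells summed. Rhd (chr4:134864536-134896172), which encodes the Rh blood group protein, gave 427, 370 and 469 CPM in NZB, 935, 853 and 874 in NZW, and 424, 652 and 569 in NZBWF1. Every NZW mouse lay above every other mouse, and NZB differed from NZW by -1.07 ± 0.13 on the log2 scale (edgeR adjusted p = 3.33e-10, at most 2.18e-05 over 20 alternatives).

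Tspo2, the erythroid member of the translocator protein family, gave 60.1, 54.4 and 94.7 CPM in NZB, 161, 182 and 152 in NZW, and 129, 136 and 195 in NZBWF1. Every NZB mouse lay below every other mouse (-1.24 ± 0.22 against NZW, edgeR adjusted p = 1.48e-05). NZBWF1 was also called higher than NZB. That call was lost without NZB replicate 2 (edgeR adjusted p = 0.32), NZBWF1 replicate 2 (0.0561) or NZBWF1 replicate 3 (0.101), and with DESeq2 (0.0929). Add1, the skeleton protein adducin, stood at 91.5 ± 15.8 in NZB and 174 ± 20.2 in NZW (-0.88 ± 0.20, edgeR adjusted p = 0.00189, 0.0585 by DESeq2). Aqp1, the water channel of the red cell, stood at 626 ± 83.6 and 833 ± 60.5 (-0.41 ± 0.12, edgeR adjusted p = 0.0364) and passed in 10 of 20 alternatives. Without NZB replicate 2 its difference was -0.31 (edgeR adjusted p = 0.364).

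In the haem list, 1 of 15 genes tested was higher in NZB and 1 lower, with a median of -0.03. Alad (chr4:62509169-62519918) gave 1880, 1430 and 1460 CPM in NZB, 3140, 3010 and 2930 in NZW, and 2280, 2340 and 2660 in NZBWF1. None of the 3 strains overlapped and the hybrid was intermediate. NZB differed from NZW by -0.94 ± 0.11 (edgeR adjusted p = 9.27e-11, at most 4.44e-07 over 20 alternatives), and NZBWF1 was higher than NZB by 0.61 ± 0.11 (adjusted p = 0.000206). Fam210b, a mitochondrial protein needed for haem synthesis, was higher in NZB with 204 ± 16.8 against 124 ± 7.21 CPM (0.70 ± 0.17, edgeR adjusted p = 0.00415, up to 0.11 over the alternatives).

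In the maturation list 2 of 25 genes were lower in NZB and 0 higher. Trim10 gave 207, 245 and 248 CPM in NZB, 381, 363 and 403 in NZW, and 232, 341 and 288 in NZBWF1. Each NZW mouse stood above all others (-0.69 ± 0.14, edgeR adjusted p = 0.000336, and 0.0614 with globin content in the fit). Gabarapl1, of the autophagy ATG8 family, stood at 9.35 ± 3.52 against 30.4 ± 3.20 CPM (-1.80 ± 0.56, edgeR adjusted p = 0.046) and lost its call without NZB replicate 2 (0.246) or any of 5 other mice. Of the redox list 1 of 20 passed, Cyb5r3, which keeps haemoglobin reduced, at 104 ± 19.9 against 171 ± 3.55 CPM (-0.68 ± 0.20, edgeR adjusted p = 0.0257). It passed neither with DESeq2 (0.253) nor with globin content in the edgeR fit (0.276) nor without NZB replicate 1 (0.112) or 3 (0.156) or NZW replicate 2 (0.084) or 3 (0.0581). Of 23 transcription factors 0 passed by edgeR and 0 by DESeq2, with 6 and 2 at an unadjusted p under 0.05. Gata1 stood at 195 ± 39.9 and 194 ± 19.8 CPM and Klf1 at 541 ± 68.0 and 642 ± 28.7 CPM in NZB and NZW.

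Higher in NZB were 2 of 25 S phase genes and 1 of 28 genes of G2 and mitosis, with 0 lower in either list, with list medians of -0.00 and 0.09. Pcna, the replication clamp, gave 321, 306 and 292 CPM in NZB, 161, 133 and 117 in NZW, and 238, 282 and 202 in NZBWF1 (NZB against NZW 1.19 ± 0.15, edgeR adjusted p = 2.41e-09). Reads of the near-identical Pcna-ps2 made up 1.10 to 2.04% of the pair in NZB, 31.2 to 41.6% in NZW and 9.68 to 18.9% in NZBWF1. Summed over both, the parental difference was 0.54 ± 0.15 (edgeR adjusted p = 0.0122) and that of NZBWF1 and NZW 0.51 ± 0.14 (adjusted p = 0.0753). Clspn, an adaptor of the replication checkpoint, stood at 250 ± 10.8 and 169 ± 17.0 CPM (0.59 ± 0.16, edgeR adjusted p = 0.0102), and without NZB replicate 2 it stood at an edgeR adjusted p of 0.121, without NZW replicate 3 at 0.0906, and with DESeq2 at 0.134. Aurka, a mitotic kinase, stood at 192 ± 24.7 and 113 ± 21.4 CPM (0.69 ± 0.18, edgeR adjusted p = 0.00875). It lost its call with DESeq2 (0.73, adjusted p = 0.0962) and with globin content in the edgeR fit (0.65, adjusted p = 0.11), at differences of like size. The call was also lost without NZB replicate 1 (edgeR adjusted p = 0.057) and without NZW replicate 1 (0.0525).

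Outside the lists, the genes with the smallest p in each direction are described. H1f0 (chr15:79028450-79030504), the linker histone of cells that stop dividing, gave 33.4, 20.4 and 11.8 CPM in NZB, 139, 206 and 220 in NZW, and 87.8, 127 and 57.6 in NZBWF1 (NZB against NZW -3.26 ± 0.30, edgeR adjusted p = 1.11e-13). Hist1h4i, a histone H4 gene, had 0, 0 and 0 UMIs in NZB, 67, 106 and 133 in NZW, and 11, 36 and 7 in NZBWF1. Against a floor of 3 UMIs over the 3 NZB mice it was at least 34.9-fold higher in NZW and at least 16.7-fold higher in NZBWF1 than in NZB. Slc29a1, the nucleoside transporter ENT1, stood at 86.8 ± 17.4, 319 ± 3.73 and 178 ± 25.6 CPM in NZB, NZW and NZBWF1 (NZB against NZW -1.82 ± 0.18, edgeR adjusted p = 2.3e-14).

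Hjurp, the chaperone that deposits the centromeric histone, was higher in NZB, with 361, 353 and 371 CPM against 146, 136 and 123 in NZW and 294, 266 and 274 in NZBWF1. Its parental difference of 1.43 ± 0.15 (edgeR adjusted p = 1.43e-13) passed in 20 of 20 alternatives. Acyp2, an acylphosphatase, stood at 157 ± 37.4, 23.8 ± 1.6 and 109 ± 18.9 CPM (2.62 ± 0.26, edgeR adjusted p = 2.3e-14). Paqr9, of the progestin and adipoQ receptor family, stood at 227 ± 6.46, 61.0 ± 15.4 and 117 ± 28.2 CPM (1.94 ± 0.20, edgeR adjusted p = 9.04e-14). The antisense transcript Gm11837 had 51 UMIs in NZB, 1 in NZW and 18 in NZBWF1, a ratio of NZB to NZW of 149 with a 95% counting interval from 25.5 to 5990. The ribosomal protein genes Rps3a1 (6310 ± 403 against 2600 ± 121 CPM) and Rps2 (3820 ± 355 against 7710 ± 324 CPM) differed in opposite directions, and both have processed copies in the genome that could take their reads, which makes their values uncertain.

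**Figure D4:**
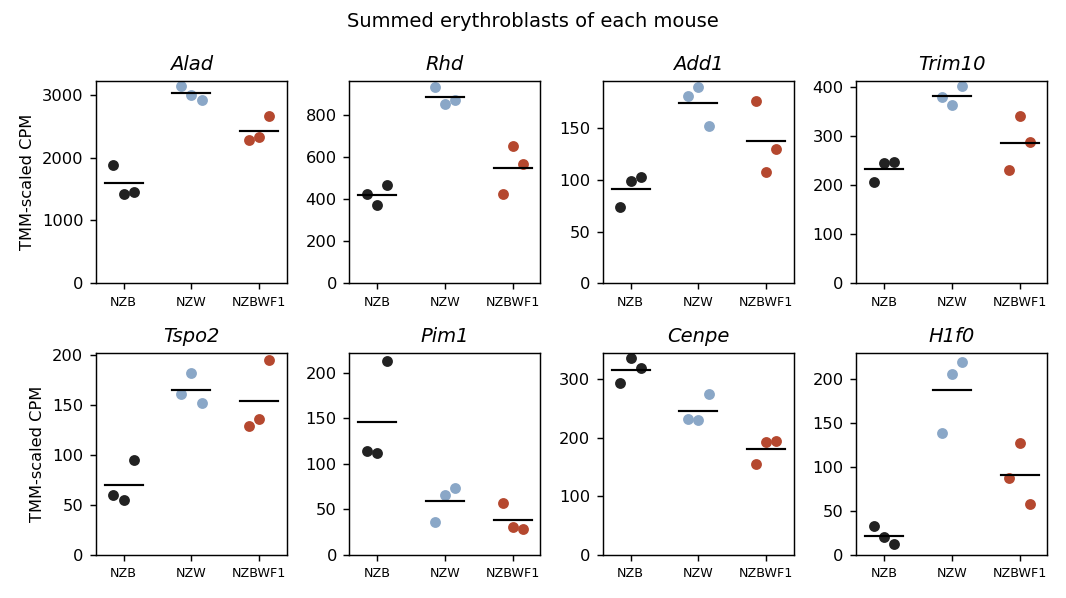
TMM-scaled CPM of 8 genes in the summed erythroblasts of each mouse, with a line at the mean of 3 mice. Rhd and Trim10 are highest in the 3 NZW mice, Alad is ordered NZB, NZBWF1, NZW without overlap, and Cenpe is lowest in the 3 NZBWF1 mice (155 to 195).

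The hybrid was then set against the mean of its parents, the contrast of the study. Of 4235 genes 8 passed (0.189%), 4 higher (0.0945%) and 4 lower (0.0945%), while 299 had an unadjusted p under 0.05. DESeq2 called 3, the edgeR fit with globin content 3, and edgeR 2 when NZBWF1 replicate 2 was left out, 3 without NZBWF1 replicate 3 and 4 without NZB replicate 2. In 0 genes did the hybrid differ from both parents in the same direction by edgeR's adjusted p or by DESeq2's, and in 55 it did so by edgeR's unadjusted p under 0.05 and in 15 by that of DESeq2. Tested against each parent, NZBWF1 differed from NZB in 34 genes (0.803%), 18 higher (0.425%) and 16 lower (0.378%), and from NZW in 32 (0.756%), 15 higher (0.354%) and 17 lower (0.401%). The 34 became 21 with DESeq2, and with edgeR 14 when NZBWF1 replicate 2 was left out and 19 without NZB replicate 2. The 32 became 16 with DESeq2, and with edgeR 13 with globin content in the fit and 19 in cells with at least 5 UMIs of Slc4a1 and Alas2. The comparisons share the hybrid mice.

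The 4 lower genes were Pim1, Cenpe, Cenpf and Prc1. Pim1, a survival kinase that erythropoietin receptor signalling induces, gave 114, 112 and 213 CPM in NZB, 36.6, 66.3 and 73.8 in NZW, and 56.8, 30.6 and 28.8 in NZBWF1. NZB stood apart from both other strains, which overlapped, and the hybrid differed from the parental mean by -1.37 ± 0.30 (edgeR adjusted p = 0.0243) and from NZB by -1.99 ± 0.32 (adjusted p = 6.58e-05). The first of these was lost without NZBWF1 replicate 2 (-1.10, adjusted p = 0.597) or replicate 3 (-1.30, 0.0776) and with DESeq2 (0.317).

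Cenpe, the kinetochore motor, gave 294, 336 and 319 CPM in NZB, 232, 231 and 275 in NZW, and 155, 193 and 195 in NZBWF1. Each NZBWF1 mouse lay below all 6 parental mice (-0.62 ± 0.15 against the parental mean, edgeR adjusted p = 0.0284). Cenpf, a further kinetochore protein, gave 421, 533 and 477 CPM in NZB, 403, 416 and 411 in NZW, and 315, 329 and 259 in NZBWF1, again without overlap (-0.53 ± 0.12, edgeR adjusted p = 0.0284). Prc1, which bundles the microtubules of the central spindle, gave 434, 431 and 438, then 325, 332 and 321, then 196, 285 and 288 CPM (-0.54 ± 0.13, edgeR adjusted p = 0.0381). The calls of these 3 depended on the setting. Cenpe passed in 9 of 20 alternatives, Cenpf in 8 and Prc1 in 4, with adjusted p up to 0.359, 0.376 and 0.496, and without NZBWF1 replicate 2 each stood at 0.203. Without the neutrophil-rich cells the difference was -0.59 for Cenpe (edgeR adjusted p = 0.0531) and -0.48 for Cenpf (0.0779).

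Over the whole list of G2 and mitosis, 2 of 28 genes passed as lower and 0 as higher by edgeR, with a median of -0.08 against 0.01 over all genes, and 13 members lay above zero. DESeq2 called 0 of the 28, and 6 by edgeR and 4 by DESeq2 had an unadjusted p under 0.05. Mki67 (1840 ± 124, 1740 ± 26.7 and 1410 ± 152 CPM in NZB, NZW and NZBWF1) and Top2a (1120 ± 176, 925 ± 54.0 and 850 ± 67.0 CPM) did not pass, at -0.34 ± 0.10 (edgeR adjusted p = 0.257) and -0.26 ± 0.11 (0.635). Of 25 S phase genes 0 passed by edgeR or DESeq2 (7 and 2 at an unadjusted p under 0.05), 22 lay above zero and the median was 0.14. Of the 15 haem, 29 membrane, 23 transcription factor, 25 maturation and 20 redox genes 0 passed in this contrast by edgeR or DESeq2, with medians between -0.08 and -0.00. At an unadjusted p under 0.05 edgeR gave 1, 3, 3, 1 and 1 of them. Tfrc (665 ± 102, 597 ± 116 and 536 ± 34.1 CPM), Epor (155 ± 43.3, 138 ± 17.2 and 124 ± 1.13 CPM), Hmox1 (59.3 ± 25.7, 25.4 ± 21.3 and 59.0 ± 55.1 CPM) and Bnip3l (296 ± 39.2, 385 ± 19.5 and 299 ± 18.0 CPM) did not pass in any of the 4 strain comparisons, nor did Car1, Car2, Fth1, Gata1 or Klf1. The difference of Tfrc between the hybrid and the parental mean was -0.26 ± 0.12.

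In each of the 4 higher genes 1 parent was far below the other, and the excess held only against the mean of the log2 values. Against the mean of the parental CPM, a comparison added after seeing the data and not tested, the hybrid stood at 1.02 of it for Ftl1, 1.03 for Ftl1-ps1, 0.899 for Ifitm2 and 0.833 for Hist1h4i, with 1 hybrid mouse above and 2 below it in each. The 4 lower genes stood at 0.377 to 0.679 of it, with 3 of 3 mice below. Hist1h4i is described above (3.34 ± 0.65, edgeR adjusted p = 0.00238, and 0.203 without NZBWF1 replicate 2, 0.0595 without NZB replicate 2 or 0.0918 with DESeq2). Ifitm2, an interferon-induced membrane protein that hinders virus entry, gave 60.1, 153 and 90.7 CPM in NZB, 1450, 1260 and 1300 in NZW, and 496, 673 and 771 in NZBWF1. Every hybrid mouse sat between the parents, at 0.76 ± 0.15 above the mean of their log2 values (edgeR adjusted p = 0.00917). This lost its call without NZBWF1 replicate 2 (edgeR adjusted p = 0.235) or replicate 3 (0.0527) and with globin content in the fit (0.88, adjusted p = 0.0697), as did NZBWF1 against NZW with globin content (-0.86, adjusted p = 0.182). Its neighbour Ifitm3 went the other way, with 166 ± 59.7, 52.9 ± 14.7 and 81.0 ± 14.7 CPM (NZB against NZW 1.65 ± 0.22, edgeR adjusted p = 4.87e-09). The 2 genes are close relatives that can trade reads, and summed they stood at 267 ± 107, 1390 ± 86.2 and 727 ± 148 CPM, with a parental difference of -2.31 ± 0.20 (edgeR adjusted p = 2.79e-07) and 0.22 ± 0.16 (adjusted p = 0.881) for the hybrid. In the interferon list, 2 of 14 genes were higher in NZB and 1 lower. One of the higher genes was Apobec3, a cytidine deaminase that restricts retroviruses, at 189 ± 4.39, 62.1 ± 13 and 172 ± 29.1 CPM (1.57 ± 0.20, edgeR adjusted p = 6.65e-10), and NZBWF1 exceeded NZW by 1.36 ± 0.20 (adjusted p = 1.01e-06).

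The other 2 higher genes were the ferritin light chain and its copy. Ferritin stores the iron that haem synthesis draws on, and its light chain is annotated at Ftl1 (chr7:45457944-45459884, minus strand) and at the near-identical Ftl1-ps1 (chr13:74399694-74407346, plus strand). The coding sequences of the reference transcripts (GRCm38, GENCODE vM21) are 552 bases long and differ at 2 of them (99.6% identical), and the first 163 bases past the stop codon differ at 1. Both coding differences fall into the last 150 coding bases, printed here with the differing base in capitals.
Ftl1: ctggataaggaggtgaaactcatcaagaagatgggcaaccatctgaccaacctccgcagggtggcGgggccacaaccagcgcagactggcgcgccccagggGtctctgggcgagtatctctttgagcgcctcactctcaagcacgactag
Ftl1-ps1: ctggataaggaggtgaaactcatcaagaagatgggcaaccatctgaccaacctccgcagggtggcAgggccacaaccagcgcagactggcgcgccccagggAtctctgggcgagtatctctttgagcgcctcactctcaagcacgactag
In NZB erythroblasts 5220, 3180 and 3620 CPM were assigned to Ftl1 and 33.4, 20.4 and 11.8 to Ftl1-ps1. In NZW the assignment was turned round, with 112, 124 and 148 CPM at Ftl1 and 3120, 3100 and 3210 at Ftl1-ps1. The NZBWF1 mice had 2330, 1960 and 2050 CPM at Ftl1 and 1890, 1530 and 1490 at Ftl1-ps1. The copy took 0.326 to 0.638% of the pair in NZB, 95.6 to 96.5% in NZW and 42.2 to 44.8% in NZBWF1.

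Taken singly, both genes passed in every strain comparison (Ftl1 4.94 ± 0.16 and Ftl1-ps1 -7.26 ± 0.20 for NZB against NZW, edgeR adjusted p = 1.5e-21 and 1.09e-54). The hybrid exceeded the mean of the parental log2 values, though hardly that of their CPM (2113 against 2067 for Ftl1 and 1637 against 1583 for Ftl1-ps1), by 1.55 ± 0.12 for Ftl1 (edgeR adjusted p = 6.97e-11, and 0.0522 without NZBWF1 replicate 1) and by 2.69 ± 0.14 for Ftl1-ps1 (3.14e-31). Summed, the pair stood at 4030 ± 1090, 3270 ± 70.9 and 3750 ± 409 CPM. The sum differed by 0.29 ± 0.13 between the parents (edgeR adjusted p = 0.266) and by 0.05 ± 0.11 between the hybrid and the parental mean (adjusted p = 0.995). Which bases of these strains differ from the reference was not analysed here. With the 3 pairs of copies summed before the fit, 4 genes passed in the contrast of the hybrid with the parental mean in place of 8.

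**Figure D5:**
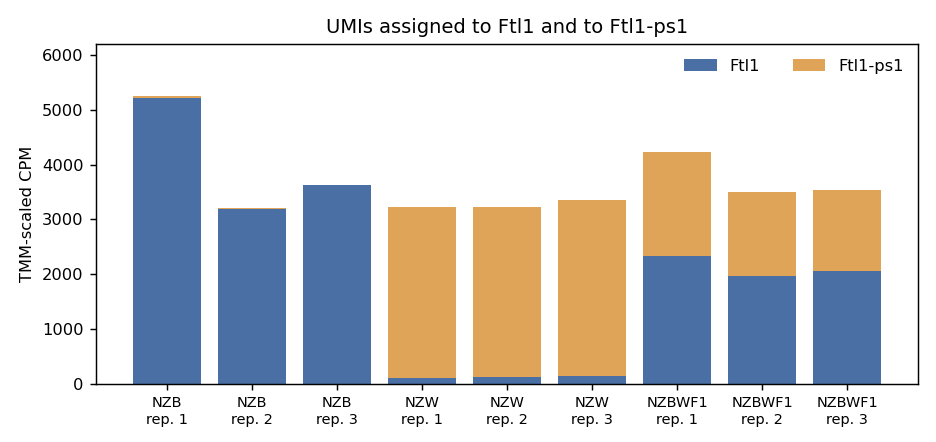
TMM-scaled CPM assigned to Ftl1 (blue) and to Ftl1-ps1 (orange), stacked, in the summed erythroblasts of each mouse. The height of the stack lies between 3200 and 5260, while the share of Ftl1-ps1 goes from under 1% in NZB to over 95% in NZW, with NZBWF1 between 42.2 and 44.8%.

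Of the 160 genes called between the parents, 29 were also called between NZBWF1 and NZB, and 29 between NZBWF1 and NZW. Stmn1, stathmin, which destabilises microtubules, stood at 628 ± 39.4, 1410 ± 89.7 and 1050 ± 168 CPM in NZB, NZW and NZBWF1 (NZBWF1 against NZB 0.74 ± 0.13, edgeR adjusted p = 6.58e-05). Gadd45gip1, a subunit of the mitochondrial ribosome, stood at 264 ± 34.5, 91.7 ± 14.4 and 135 ± 5.23 CPM (NZBWF1 against NZB -0.95 ± 0.19, edgeR adjusted p = 0.00093). Cdkn2c, an inhibitor of cyclin-dependent kinases, stood at 39.2 ± 5.18, 151 ± 9.55 and 70.4 ± 21.4 CPM (NZBWF1 against NZW -1.17 ± 0.22, edgeR adjusted p = 0.000162). With globin content in the fit this difference was -1.12 (edgeR adjusted p = 0.141), and those of Slc29a1 and Rhd against NZW were -0.58 (0.468) and -0.48 (0.336).

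The antisense transcript BC023719 had 37 UMIs in NZB, 0 in NZW and 21 in NZBWF1, at least 36.0-fold higher in NZB and at least 18.9-fold higher in NZBWF1 than in NZW by the floor of 3 UMIs over the NZW mice. The long non-coding Gm35082 had 0 UMIs in NZB, 98 in NZW and 4 in NZBWF1, all of those in replicate 2. It was at least 11.2-fold higher in NZW than in NZB.

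Whether strain differences were particular to erythroblasts was tested against the Car1-positive progenitors of the same mice, with the difference between the 2 cell groups as the tested quantity. For NZB against NZW there were 6 of 7640 (0.0785%), 1 with a more positive signed difference in erythroblasts (0.0131%) and 5 with a more negative one (0.0654%). In those 5 NZW exceeded NZB in both cell groups, by more in erythroblasts. For the hybrid against the parental mean there were 2 (0.0262%), both with a more negative difference in erythroblasts. These counts depended on the reference and on single mice. With the rest of the marrow as reference there were 151 genes between the parents, 44 with a more positive difference and 107 with a more negative one, and 5 for the hybrid. Without the neutrophil-rich cells there were 12 and 11 genes. The count between the parents was 2 without NZW replicate 3, 4 without NZB replicate 3 and 14 without NZW replicate 1, and that for the hybrid ran from 0 (edgeR, 377 at an unadjusted p under 0.05) without NZBWF1 replicate 3 to 7 without NZW replicate 1. At an unadjusted p under 0.05 there were 498 and 384. The parental difference of Ifitm2 was 1.55 ± 0.18 log2 units more negative in erythroblasts (edgeR adjusted p = 2.55e-08, called in 13 of 13 alternatives), and its levels were 101 ± 47.3 and 1340 ± 101 CPM in erythroblasts of NZB and NZW in the strain fit. In the fit of both cell groups the progenitors had 225 ± 37.6 and 971 ± 115 CPM. H1f0 differed by -2.0 ± 0.38 (edgeR adjusted p = 0.00179, and 0.158 without NZB replicate 3 or 0.103 without NZW replicate 3), with 21.5 ± 10.1 and 194 ± 46.2 CPM in erythroblasts and 26.1 ± 5.89 and 66.6 ± 9.35 CPM in progenitors.

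Odc1, which opens polyamine synthesis, differed by -0.55 ± 0.11 (edgeR adjusted p = 0.00227, and 0.0534 without NZB replicate 1 or 0.313 without NZW replicate 3). Its parental values were 707 ± 68.5 and 1240 ± 110 CPM in erythroblasts and 479 ± 28.1 and 565 ± 75.8 CPM in progenitors, and its processed copies make these uncertain. Tkt (transketolase) differed by -0.64 ± 0.14 (edgeR adjusted p = 0.0208) and Ybx1, an RNA-binding Y-box protein, by -0.48 ± 0.11 (0.0316), the latter at a level that was lower in erythroblasts of each strain. Tkt passed in 9 of 13 alternatives and stood at an edgeR adjusted p of 0.59 without NZB replicate 2, 0.115 without NZB replicate 3, 0.492 without NZW replicate 2 and 0.313 without NZW replicate 3. Ybx1 passed in 7 of 13 and stood at an edgeR adjusted p of 0.689 without NZW replicate 3, 0.571 without NZW replicate 2, 0.177 without NZB replicate 3, 0.0582 without NZB replicate 2, 0.0651 when NZBWF1 replicate 3 was left out, and 0.078 without the neutrophil-rich cells.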

How the data were processed

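Bone marrow of 9 mice was profiled with 10x 3′ libraries on a NextSeq 500. The authors made the deposited UMI counts with Cell Ranger 3.1.0 (bcl2fastq 2.20, mm10) and merged the libraries, and no source read here states if that step evened out depth. A barcode was assigned to the library whose row in the merge list matched its numeric suffix. The limits on UMIs, genes and mitochondrial content are those of the study, whose text gives 31053 cells where 39051 passed here. That number equals the number of genes in the files.

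UMIs were summed per mouse (at least 20 cells each) and tested with edgeR 4.0.16 (TMM, filterByExpr, robust quasi-likelihood fit over 4252 genes, Benjamini-Hochberg), without rule and mitochondrial genes in the counts, which left 4235. Shares were tested by exact permutation over mice. Intervals and floors cover counting error only. Doublets were called with Scrublet in scanpy 1.11.5 and kept. DESeq2 1.42.0 was an alternative. Scripts were tested on simulated data. Genes named were list members called, fixed erythroid genes, and up to 6 with the smallest p in each direction. The cells, gene lists and tests were chosen with earlier results of these data known. Ahsp was not analysed here, and 3 list members are not reported here by name.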

Additional observations from a re-analysis of the deposited data

Results flagged for a closer look

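The parental difference was not the same in erythroblasts and in the Car1-positive progenitors of the same mice for 6 genes, by the test of the difference itself. It differed by -1.55 ± 0.18 for Ifitm2, -2.0 ± 0.38 for H1f0, -0.55 ± 0.11 for Odc1, -0.64 ± 0.14 for Tkt and -0.48 ± 0.11 for Ybx1 on the log2 scale, described above. They were called in 13 (Ifitm2), 11 (H1f0), 11 (Odc1), 9 (Tkt) and 7 (Ybx1) of 13 alternatives. For Lgals1, which encodes galectin 1, it differed by 2.32 ± 0.42 (edgeR adjusted p = 0.00103, and 0.601 without NZB replicate 2). Its levels in NZB, NZW and NZBWF1 were 51.8 ± 31.7, 19.8 ± 13.2 and 10.4 ± 3.63 CPM in erythroblasts and 33.1 ± 10.7, 57.3 ± 18.4 and 69.6 ± 25.8 CPM in progenitors.

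The difference of the hybrid from the parental mean was not the same in both cell groups for 2 genes that macrophages and other myeloid cells express. For Fn1 (fibronectin) it differed by -5.33 ± 0.97 (edgeR adjusted p = 0.00172, and 0.0855 without NZBWF1 replicate 2 or 0.992 without NZBWF1 replicate 3), with 36, 35 and 1 UMIs in erythroblasts of NZB, NZW and NZBWF1 and 27, 38 and 71 in progenitors. For Irf8, a transcription factor of monocytes and dendritic cells, it differed by -4.04 ± 0.83 (edgeR adjusted p = 0.013, and 0.487 without NZBWF1 replicate 2, 0.992 without NZBWF1 replicate 3, 0.0653 without NZW replicate 3 or 0.961 against the rest of the marrow), with 27, 36 and 2 UMIs against 44, 51 and 94. In both genes the mean level of the hybrid lay below those of the parents in erythroblasts and above them in progenitors. The macrophage list was summed to 65.1 to 339 CPM in NZB, 8.57 to 230 in NZW and 20.7 to 171 in NZBWF1 erythroblasts. The monocyte list came to 6.17 to 124 CPM in NZB, 35.5 to 50.2 in NZW and 5.18 to 26.6 in NZBWF1 mice, each hybrid mouse below each NZW mouse. The granulocyte-monocyte precursor list came to 18.5 to 185, 11.4 to 183 and 0.0 to 19.6 CPM, with the lowest maximum in the hybrid. The part of such RNA in these differences was not tested.

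Outside the cells compared, 190 barcodes met the marker criteria but failed a limit on UMIs (91), genes (112) or mitochondrial UMIs (88). Their median globin content was 21.0% at a median of 1084 UMIs, and 88 of them lay at 30% globin or more, against 13 erythroblasts. NZB mice gave 68, NZW mice 83 and NZBWF1 mice 39.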

How the results depend on the processing

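Of 1400 values of 74 named gene results under the alternatives, 1251 were called in the same direction, 149 kept the direction without a call and 0 reversed. Between NZBWF1 and its parental mean, 8 genes became 3 with DESeq2, 3 with at least 5 UMIs of Slc4a1 and Alas2, 3 with globin content as covariate, 4 with copies summed and 15 with no filter on low counts, and 2 to 10 without 1 mouse. NZB against NZW went from 160 to 75 with DESeq2 and 104 with the covariate (112 to 219 without 1 mouse). NZBWF1 against NZB went from 34 to 21 with DESeq2 (14 to 51). NZBWF1 against NZW went from 32 to 16 with DESeq2, 19 with at least 5 UMIs and 13 with the covariate (26 to 46). The difference between cell groups went from 2 to 11 without neutrophil-rich cells, 5 with no filter and 5 with the rest of the marrow as reference for the hybrid (0 to 7), and from 6 to 12, 15 and 151 for the parents (2 to 14). The causes were not tested.

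The 3-strain share test (p = 0.05, exact permutation) gave 0.0393 with barcodes lacking Cd79a as total, 0.0321 with at least 5 UMIs and 0.0464 without neutrophil-rich cells. It gave 0.0643 after thinning, 0.0607 with doublets removed and 0.0714 for cells with 10% globin or more, and 0.00714 to 0.136 without 1 mouse. The hybrid contrast of -1.01 (exact p = 0.0833) was -1.57 (exact p = 0.0357) after thinning and -1.04 (exact p = 0.0476) without neutrophil-rich cells. It was -0.81 (exact p = 0.179) with barcodes lacking Cd79a as total and -0.98 (exact p = 0.0952) with doublets removed. With at least 5 UMIs it was -1.16 (exact p = 0.0952), and for cells with 10% globin or more -1.51 (exact p = 0.155). It ran from -1.42 to -0.55 without 1 mouse. The test of dividing cells gave an exact p of 0.025 to 0.129 without 1 mouse. The alternatives without neutrophil-rich cells, with copies summed and with the covariate were chosen after seeing the data.

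Expression did not deviate together in same-numbered mice (correlations -0.142 to 0.0488). Cell counts did go with the number. In each strain replicate 1 had the fewest erythroblasts (21, 57 and 20) and replicate 2 the most (63, 142 and 72). Replicate 2 also had the fewest marker-positive barcodes that failed a limit in each strain (13, 11 and 8). Whether the numbers mark batches was not tested. With a replicate block, 7, 141, 33 and 31 genes passed in the 4 comparisons, 62 named results kept their call and 4 lost it. Cells with 10% globin or more could not be fitted alone. Sums from 20 to 142 cells per mouse limit what low genes can show.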

Other observations

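Some genes that differed between the parents in erythroblasts were neighbours. Of the 160 called genes, 27 (16.9%) had another called gene within 100 kb, against 234 of 4073 genes not called (5.75%), a description with no test. The 27 formed 15 pairs, 8 in the same direction and 7 in opposite directions. Fam210b and Aurka on chromosome 2 are 440 bases apart and were both higher in NZB (0.70 and 0.69 on the log2 scale). Beside Rhd on chromosome 4, which was lower in NZB (-1.07), Tmem50a lay 1676 bases away and was higher (0.72), and Rsrp1 lay 27419 bases away and was higher (0.94). Tmem50a and Rsrp1 were chosen after their values were seen.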
